A study of Mus musculus with 32 samples.

Results

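Myelin and oligodendrocyte genes were followed in hippocampus (HPC), meninges and sorted meningeal lymphatic endothelial cells (mLECs) of mice with and without Alzheimer's disease-like amyloid pathology. The genes were the 9 with the symbols Mbp, Mobp, Mog, Mag, Cnp, Mal, Opalin, Olig1 and Olig2, out of 22337 genes in the deposited tables. The study asked whether light shone through the skull changes the brain and meninges of 5xFAD mice. Each of the 32 RNA samples came from 1 mouse. The HPC had 4 samples in each of 3 groups (WT, 5xFAD, and 5xFAD given light), and the meninges and the sorted mLECs each had 4 WT, 3 5xFAD and 3 light samples. All mice were male, 6 months of age and on the C57BL/6J background. The 5xFAD mice carry mutant human transgenes that cause amyloid deposition, driven by regulatory elements of Thy1, so they are expressed in neurons rather than in oligodendrocytes. The light-treated 5xFAD mice received a near-infrared laser in repeated sessions over several weeks. There was no light-treated WT group, so both 5xFAD groups carry the transgenes and light was compared only on that background.

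Oligodendrocytes wrap axons of the central nervous system in myelin, a stack of membrane rich in lipid and in a small number of proteins that no other brain cell makes in quantity. Outside the brain and spinal cord, including in nerves that cross the meninges, myelin is made by Schwann cells, which share some of these proteins and lack others. In mice with amyloid plaques, oligodendrocytes are known to switch on a set of complement, antigen presentation and stress genes.

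The 9 genes fall into 3 roles. Mbp, Mobp and Mal encode proteins of the compact membrane stack: Mbp, myelin basic protein, holds the inner membrane faces together, Mobp is an abundant companion of it, and Mal is a lipid raft protein of myelin that epithelia and Schwann cells also make. Mog and Mag lie at the outer and the axon-facing surface of the sheath, Cnp keeps the cytoplasmic channels of the sheath open, and Opalin is a membrane protein at the loops beside the node. Olig1 and Olig2 are the transcription factors that specify the lineage, and precursor cells carry them too. In the GRCm38 build, Mobp lies at chr9:120149707-120181484, Mog at chr17:37010743-37023398, Mag at chr7:30899176-30914873 and Cnp at chr11:100574904-100591729. Mal lies at chr2:127633226-127656695, Opalin at chr19:41061710-41077113, Olig1 at chr16:91269772-91271933 and Olig2 at chr16:91225457-91228677, so that Olig1 and Olig2 are neighbours.

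These genes lie on several chromosomes, and the sequence just before the start of 3 of them is shown. RefSeq windows (GRCm38.p6) matched 7 of the 9 genes, and each stretch below ends at the first annotated base of its gene. In all 4 motifs were searched on both strands: ACAAAG and ACAATG, cores bound by SOX proteins such as Sox10, CTGGNAC, the core bound by the myelin gene regulatory factor Myrf, and the E-box CANNTG. Capitals mark every match of ACAAAG and CTGGNAC, and no match of one overlapped a match of the other in these stretches.
Mobp, plus strand, chr9:120149492-120149706: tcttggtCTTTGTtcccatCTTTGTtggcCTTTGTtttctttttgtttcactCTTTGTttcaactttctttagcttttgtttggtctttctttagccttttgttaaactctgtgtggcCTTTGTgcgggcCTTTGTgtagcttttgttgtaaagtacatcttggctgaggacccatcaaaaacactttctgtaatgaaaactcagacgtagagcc
Mog, minus strand, chr17:37023399-37023648: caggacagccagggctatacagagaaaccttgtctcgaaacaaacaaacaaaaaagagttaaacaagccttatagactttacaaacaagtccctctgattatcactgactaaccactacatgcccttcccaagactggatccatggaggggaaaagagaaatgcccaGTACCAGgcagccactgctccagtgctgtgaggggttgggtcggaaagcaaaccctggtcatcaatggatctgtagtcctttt
Opalin, minus strand, chr19:41077114-41077363: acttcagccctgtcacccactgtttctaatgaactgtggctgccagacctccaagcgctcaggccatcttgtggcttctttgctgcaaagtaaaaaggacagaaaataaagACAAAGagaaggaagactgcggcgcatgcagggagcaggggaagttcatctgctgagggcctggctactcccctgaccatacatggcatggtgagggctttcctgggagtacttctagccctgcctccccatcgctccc
Mobp held 6 copies of ACAAAG, all on the opposite strand, Opalin held 1, and Mog held 1 copy of CTGGNAC. The 7 genes had 9 windows of 250 bases, 3 of them, partly overlapping, of Mag. ACAAAG occurred in 5 of the 9 windows (of Mobp, Cnp, Mag and Opalin) and in 16.5% of all 32851 windows, and CTGGNAC in 4 of the 9 (of Cnp, Mag and Mog) and in 16.1% of all. ACAATG occurred in 1 of the 9, of Olig2, and in 10.7% of all. The E-box, the core that Olig1 and Olig2 bind, occurred in 4 of the 9 and in 66.2% of all windows. The window of Mal held no match of any of the 4 motifs. The matches describe the letters in the windows and are not binding measurements, and their part in how the genes varied between mice was not tested.

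The authors deposited an estimated count per gene and its FPKM, which is the count scaled by transcript length and library size, so that FPKM can be compared between genes. The HPC libraries held 13952825 to 23856476 counts each, the meningeal libraries 6601143 to 14708202 and the mLEC libraries 14231415 to 24207326. Genes of fibroblasts, which build the meninges, summed to between 1403 and 2474 FPKM in the meninges and to between 15.6 and 114 FPKM in the HPC. All meningeal samples also carried choroid plexus genes, with sums from 15570 FPKM in WT mouse 1 to 49069 FPKM in light-treated mouse 4. Several libraries stood apart. The HPC of light-treated mouse 4 had the highest value of its group in 9 of 9 genes. The meninges of WT mouse 1 had the highest summed FPKM of 10 neuronal genes, 612 against 118 to 456 in the other meninges. The mLECs had no Ptprc in any sample, but the 4 leukocyte genes listed summed to between 0 and 18.1 FPKM, highest in WT replicate 4. Among the mLECs, the libraries of WT replicates 2 and 4 summed to 310 and 340 FPKM over 7 lymphatic endothelial genes, against 1423 to 9856 in the others. WT replicate 2 also held 563 FPKM of choroid plexus genes, with at most 96.8 in the rest. For the 9 genes, estimates without these libraries are given beside the comparisons between groups within a tissue and between the WT tissues. Correlations in HPC are also given without light-treated mouse 4. Comparisons of other genes and gene lists between groups carry no such estimates.

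In the HPC all 9 genes were detected in all 12 mice, and their order by level was nearly fixed. Mean FPKM over the 12 mice fell from 2360 for Mbp to 533 for Mobp, 169 for Cnp, 83.4 for Olig1, 77.3 for Mag, 47.8 for Mal, 39.7 for Mog, 19.3 for Opalin and 6.00 for Olig2. In WT mice Mbp was the 18th most abundant of all genes and Olig2 the 7900th. Olig1 and Mag were the neighbours least apart, with Olig1 higher in 9 of 12 mice, and Mal exceeded Mog in 11 of 12. Each of the other neighbouring pairs kept its order in 12 of 12 mice. Mbp alone made up 69.0% of the summed FPKM of the 9 genes in WT HPC.

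**Figure D1:**
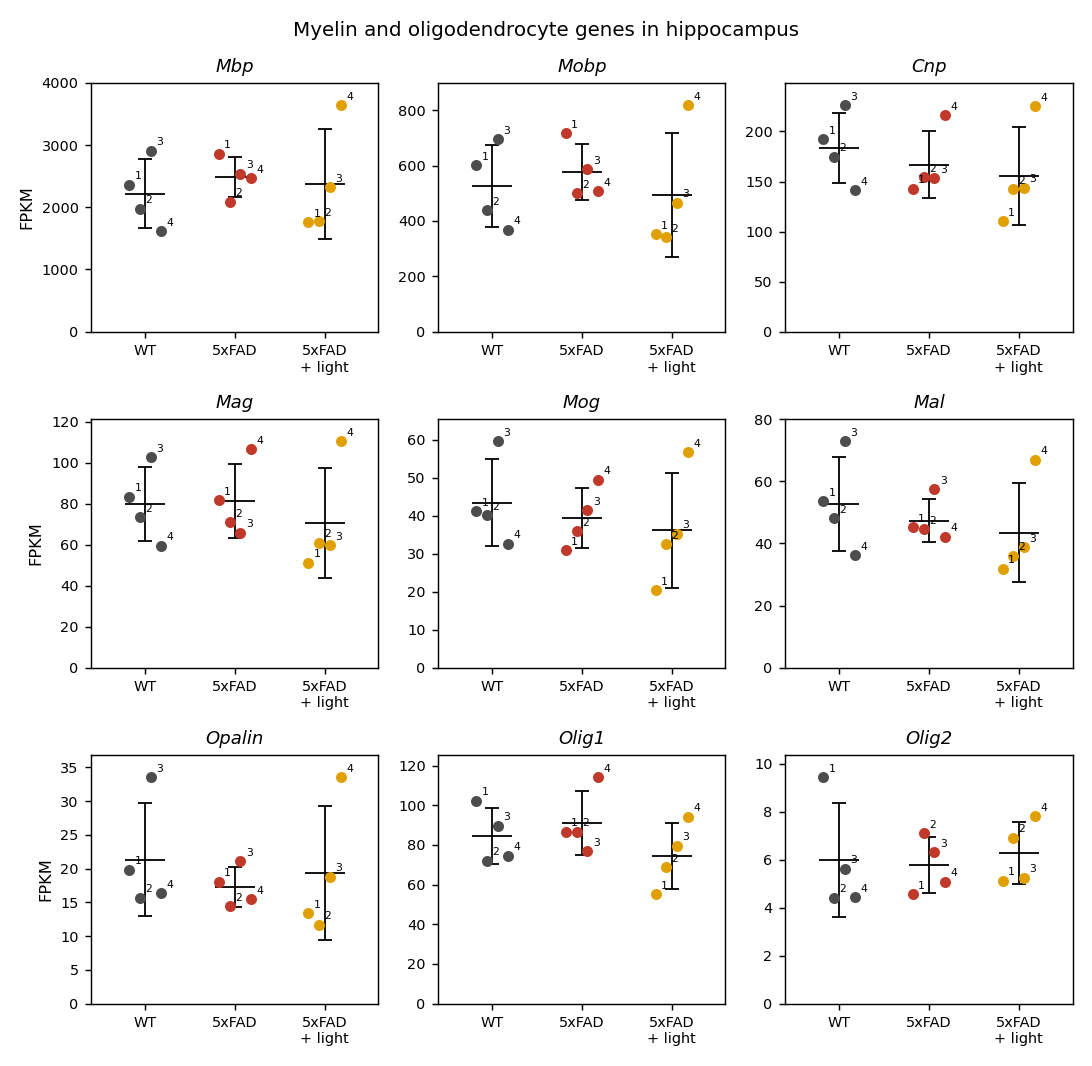
FPKM of each gene (y axis, linear from 0) in the HPC of the 3 groups (x axis), 1 point per mouse with its replicate number. Horizontal lines are group means and bars are 1 SD (n = 4). The groups overlap in every panel, and light-treated mouse 4 is the highest of its group in 9 of 9 panels.

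No difference in these genes between 5xFAD and WT HPC exceeded the spread between mice. Mbp (GRCm38 chr18:82475146-82585637) was at 2361, 1975, 2914 and 1615 FPKM in the 4 WT mice, at 2860, 2090, 2544 and 2464 FPKM in the untreated 5xFAD mice and at 1762, 1777, 2320 and 3639 FPKM in the light-treated mice. The WT range spanned most of both 5xFAD groups, and the highest and the lowest of the 12 mice were a light-treated and a WT mouse. Mbp differed by 0.18 on the log2 scale between 5xFAD and WT mice (95% interval -0.34 to 0.69, edgeR adjusted p = 0.698).

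Mobp followed the same mice. It was at 602, 439, 694 and 368 FPKM in WT, at 718, 500, 588 and 507 FPKM in untreated 5xFAD and at 353, 340, 466 and 817 FPKM in light-treated mice. WT mouse 3 and light-treated mouse 4, which were high for Mbp, were high for Mobp too. The log2 fold change of Mobp between 5xFAD and WT mice was 0.14 (-0.45 to 0.72, edgeR adjusted p = 0.803).

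Mal, the third protein of compact myelin, was at 53.6, 48.2, 72.9 and 36.3 FPKM in WT, at 45.3, 44.5, 57.5 and 42.1 FPKM in untreated 5xFAD and at 31.8, 36.1, 38.8 and 67.0 FPKM in light-treated mice. Its log2 fold change was -0.28 in 5xFAD against WT mice (-0.83 to 0.27, edgeR adjusted p = 0.550). WT mouse 4 was below all 4 untreated 5xFAD mice and WT mouse 3 above them all.

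At the surfaces of the sheath, Mog was at 41.3, 40.1, 59.6 and 32.7 FPKM in WT, at 30.9, 35.9, 41.4 and 49.5 FPKM in untreated 5xFAD and at 20.4, 32.5, 35.3 and 56.7 FPKM in light-treated mice. Mog had the widest range of any of the 9 genes in the HPC, 2.93-fold from light-treated mouse 1 to WT mouse 3, and its groups still overlapped. Mag was at 83.5, 73.5, 102.8 and 59.6 FPKM in WT, at 81.9, 70.9, 66.0 and 106.7 FPKM in untreated 5xFAD and at 51.3, 61.0, 59.8 and 110.5 FPKM in light-treated mice. Light-treated mice 1, 2 and 3 were all lower than the 4 untreated 5xFAD mice for Mag, and mouse 4 was higher than them all. The log2 fold changes between 5xFAD and WT mice were -0.10 for Mog (-0.67 to 0.47) and 0.04 for Mag (-0.47 to 0.55).

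Cnp was at 192, 175, 226 and 142 FPKM in WT, at 143, 154, 153 and 216 FPKM in untreated 5xFAD and at 110, 143, 144 and 225 FPKM in light-treated mice. Opalin was at 19.8, 15.7, 33.5 and 16.4 FPKM in WT, at 18.1, 14.4, 21.1 and 15.5 FPKM in untreated 5xFAD and at 13.4, 11.7, 18.8 and 33.5 FPKM in light-treated mice. A single mouse of the WT group and a single mouse of the light-treated group carried the top of the range of Opalin. Opalin had the lowest estimate between 5xFAD and WT mice, -0.30 on the log2 scale, and the widest interval, -1.001 to 0.40 (edgeR adjusted p = 0.621).

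The lineage factor Olig1 was at 102.2, 72.1, 89.7 and 74.6 FPKM in WT, at 86.8, 86.6, 76.9 and 114.0 FPKM in untreated 5xFAD and at 55.2, 68.8, 79.7 and 94.2 FPKM in light-treated mice. Olig2 was at 9.42, 4.42, 5.62 and 4.44 FPKM in WT, at 4.55, 7.11, 6.31 and 5.08 FPKM in untreated 5xFAD and at 5.12, 6.91, 5.25 and 7.80 FPKM in light-treated mice. WT mouse 1 was the highest of the 12 for Olig2 but not for any gene of the sheath. The log2 fold changes between 5xFAD and WT mice were 0.11 for Olig1 (-0.26 to 0.48) and -0.04 for Olig2 (-0.56 to 0.47).

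For untreated 5xFAD against WT mice, 0 of 9 genes passed edgeR's quasi-likelihood test at an adjusted p value below 0.05 with a change of at least 2-fold, where 4.28% of the 12981 genes tested did. At an unadjusted p below 0.05 there were also 0 of 9, against 24.0% of all genes, and in 0 of 9 did the groups fail to overlap, against 14.5%. DESeq2 and limma on the FPKM values also gave 0 of 9 at each of these p thresholds. Estimates were above 0 for 4 genes and below 0 for 5, with a median of -0.04 against 0.01 over all genes tested.

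For light-treated against untreated 5xFAD mice, which share the untreated mice with the first comparison, the counts were again 0 of 9 at both p thresholds, where 0.270% of all genes were called and 18.3% had an unadjusted p below 0.05. The groups overlapped for 9 of 9 genes and were apart for 7.63% of all genes. Estimates were below 0 for 7 of 9 genes, with a median of -0.10 against -0.02 over all genes. Olig1 had the lowest, -0.29 on the log2 scale (-0.66 to 0.09, edgeR adjusted p = 0.393), and Opalin the highest, 0.17 (-0.53 to 0.87, edgeR adjusted p = 0.813). The values for Mbp, Mobp, Mag, Mog, Cnp and Mal lay between -0.19 and -0.07, and that for Olig2 was 0.12.

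For light-treated 5xFAD against WT mice, 0 of 9 genes were called and 0 of 9 had an unadjusted p below 0.05, where the shares of all genes were 2.36% and 16.7%. The groups overlapped for 9 of 9 genes, and were apart for 14.9% of all. Estimates ran from -0.38 for Mal (-0.93 to 0.18, edgeR adjusted p = 0.495) to 0.11 for Mbp (-0.40 to 0.63, edgeR adjusted p = 0.858), with 7 of 9 below 0. Over the 3 comparisons, 26 of the 27 intervals excluded a 2-fold change in either direction, and the exception was the lower bound for Opalin in 5xFAD against WT mice. In counts simulated with the depth and spread of the first HPC comparison, edgeR recovered 156 of 200 genes changed 2-fold and 198 of 200 changed 4-fold among 12981 genes. In whole tissue, fewer oligodendrocytes and less RNA per oligodendrocyte cannot be told apart.

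**Figure D2:**
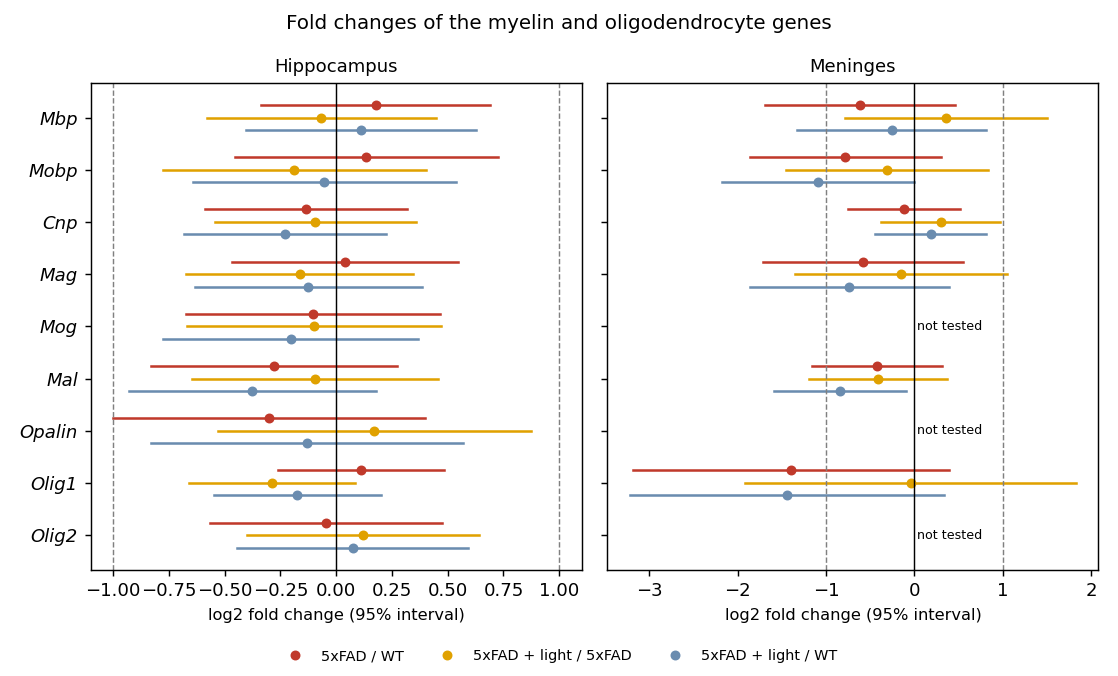
Log2 fold change of each gene (x axis, points) with its 95% interval (lines) in HPC (left) and meninges (right) for the 3 comparisons, from edgeR. Dashed lines mark 2-fold changes. In HPC every interval holds 0 and the estimates lie between -0.38 and 0.18, whereas in meninges the intervals are wider and run from -3.22 to 1.83.

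Light-treated mouse 4 held the light group's values up. This library was picked because it was the highest of its group for 9 of 9 genes, so leaving it out had to lower the group's values. Results without it are therefore a description, and the shares of all genes beside them carry no such choice. Without this library, all 9 estimates of light-treated against untreated 5xFAD mice were below 0, with a median of -0.43 in place of -0.10. Unadjusted p values were then below 0.05 for 4 of 9 genes and for 19.6% of all genes. The 4 were Olig1 at -0.43 on the log2 scale, Mag at -0.47, Mobp at -0.53 and Mal at -0.44. None passed adjustment over all genes, and the lowest edgeR adjusted p was 0.203, for Olig1. Against WT mice the remaining 3 light-treated mice had 4 of 9 genes at an unadjusted p below 0.05, where 14.7% of all genes were. These were Cnp at -0.48 (edgeR adjusted p = 0.230), Mag at -0.43 (edgeR adjusted p = 0.321), Mal at -0.72 (edgeR adjusted p = 0.0948) and Mog at -0.53 (edgeR adjusted p = 0.291), again with 0 of 9 genes called. Without WT mouse 3, which was the highest WT mouse for 7 of the 9 genes, 3 of 9 estimates against WT were below 0 in place of 7 of 9. The library of light-treated mouse 4 had 16287000 counts and 4371 FPKM of neuronal genes, within the HPC ranges of depth and of 3533 to 4908 FPKM.

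The 9 genes varied together from mouse to mouse within the WT and light-treated groups. Each mouse's log2 CPM (counts scaled to library size) were set against the mean of its own group, which removes differences between groups. Light-treated mouse 4 was then above its group by between 0.36 for Olig2 and 0.94 for Opalin. WT mouse 3 was above by between 0.02 for Olig2 and 0.76 for Opalin, and WT mouse 4 was below by between 0.16 for Olig1 and 0.54 for Mobp. Among untreated 5xFAD mice the 9 genes did not share 1 order: mouse 1 was highest for Mbp and Mobp and lowest for Cnp, Mog and Olig2.

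**Figure D3:**
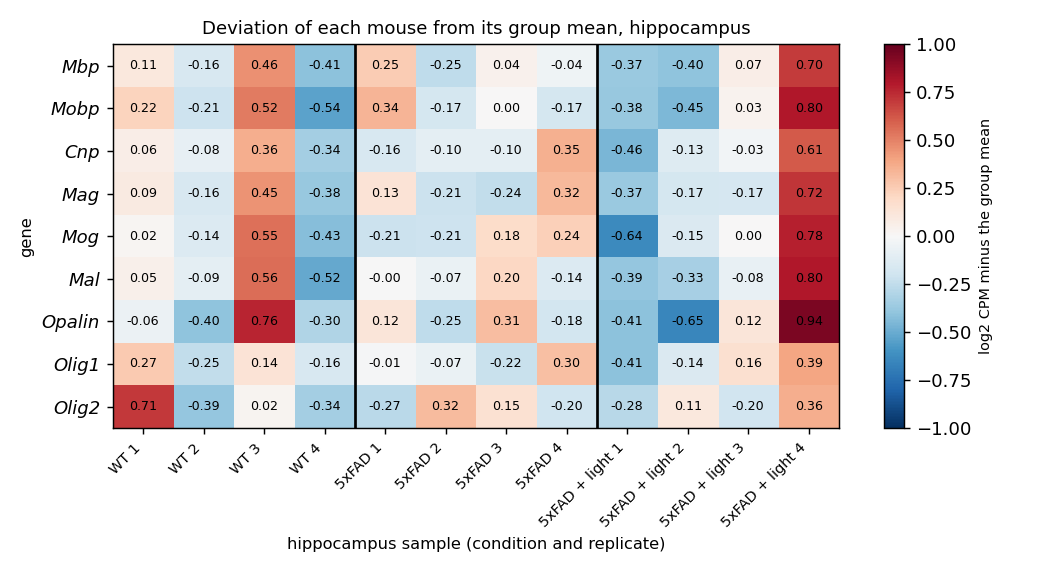
Deviation of log2 CPM from the mean of the mouse's own group (colour and printed value) for each gene (rows) in the 12 HPC samples (columns, black lines between groups). WT mouse 3 and light-treated mouse 4 are above their group in 9 of 9 rows, and WT mouse 4 is below in 9 of 9.

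Across the 12 mice, the correlation of each gene's deviation with the mean deviation of the other 8 was 0.93 for Mbp and for Mal, 0.92 for Mog, 0.91 for Mobp, 0.90 for Mag and for Cnp and 0.86 for Opalin. It was lower for the lineage factors, 0.78 for Olig1 and 0.44 for Olig2, and Olig2 was also the member with the fewest counts. Over the 36 pairs of genes the median correlation was 0.81, with a range from 0.32 to 0.99. Without light-treated mouse 4, over 11 mice, the median of the pairs was 0.62, with a range from 0.09 to 0.97, and the correlation with the other 8 genes was between 0.66 for Olig1 and 0.87 for Mbp in all but Olig2, at 0.26. These values describe 12 libraries whose depth and dissection the genes share, so no test is attached to them.

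Genes of the mature cell had the highest correlations with the 9 genes among the lists. Against the mean deviation of the 9 genes, the median correlation was 0.84 over 28 further genes of mature oligodendrocytes and 0.83 over 7 enzymes of myelin lipid synthesis. It was 0.48 over 8 microglial genes, 0.47 over 2 leukocyte genes and 0.40 over 9 genes that oligodendrocytes are known to switch on near amyloid. It was 0.33 over 10 lineage factors, 0.32 over 8 genes of newly formed oligodendrocytes, 0.30 over 16 sterol enzymes, 0.07 over 9 precursor genes and -0.12 over 10 neuronal genes. The other 5 lists lay between -0.01 and 0.21, and the median over all genes was 0.01. Without light-treated mouse 4 the median was 0.68 for the mature genes, 0.66 for the lipid enzymes, 0.33 for the microglial and the sterol genes and 0.13 for the lineage factors. Among the genes most like the members, Plekhb1 was at 0.97, followed by Cyp2j12, Qdpr, Gatm, Pcnp and Pls1, from 0.95 to 0.94, and Tspan2, a tetraspanin of the oligodendrocyte, Phldb1 and S1pr5, a sphingosine phosphate receptor of oligodendrocytes, from 0.94 to 0.93.

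Among the 28 further genes of mature oligodendrocytes, 0 were called in any of the 3 HPC comparisons. Unlike the 9 genes, these 28 summed to more in WT meninges, 4010 to 4977 FPKM, than in WT HPC, 1548 to 2542 FPKM. Their values, Gsn and Apod included, are therefore not taken as those of oligodendrocytes alone. Without the fold threshold 2 of the 28 passed in 5xFAD against WT mice, in opposite directions, where 8.54% of all genes passed. Gsn, the actin-severing protein gelsolin, was at 33.3, 31.9, 32.1 and 24.3 FPKM in WT and at 71.1, 43.0, 33.1 and 76.0 FPKM in 5xFAD mice, a log2 fold change of 0.93 (edgeR adjusted p = 0.0475). Tppp, a tubulin-binding protein of myelinating cells, was at 87.2, 89.8, 89.0 and 82.7 FPKM in WT and at 50.4, 64.0, 48.3 and 84.4 FPKM in 5xFAD mice, a log2 fold change of -0.49 (edgeR adjusted p = 0.0476). In both genes 1 of the 4 5xFAD mice overlapped the WT mice. The 7 myelin lipid enzymes, 10 lineage factors, 9 precursor genes and 8 genes of newly formed oligodendrocytes also had 0 called genes in each HPC comparison. Abundant genes of these lists did not pass adjustment in 5xFAD against WT mice. Qdpr, a reductase that recycles tetrahydrobiopterin, was at 0.07 on the log2 scale and Apod, a lipid carrier, at 0.93 (edgeR adjusted p = 0.101). Among the lipid enzymes Cers2, a ceramide synthase, was at 0.17, Fa2h, a fatty acid hydroxylase, at 0.06 and Aspa, which frees acetate for lipid synthesis, at -0.16. The transcription factors Sox8, St18 and Zfp536 were at -0.22, -0.50 and -0.17, the precursor genes Ptprz1, Cspg5 and Pdgfra at -0.03, 0.49 and -0.20, and Bcas1, Fyn and Tns3 of newly formed oligodendrocytes at 0.19, 0.22 and 0.19. Of these list genes Elovl1, an elongase of very long fatty acids, passed adjustment at 0.60 (edgeR adjusted p = 0.0278) and Itpr2, a calcium channel of newly formed oligodendrocytes, at 0.45 (edgeR adjusted p = 0.0364), both under 2-fold.

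Of 9 genes that oligodendrocytes are known to switch on near amyloid, most of which other cell types use too, 6 were called higher in untreated 5xFAD than in WT HPC, where 4.28% of all genes were called, and the median over the 9 was 1.97 on the log2 scale against 0.01 over all genes. Klk6, a secreted protease of oligodendrocytes, was at 1.66, 1.27, 1.83 and 0.90 FPKM in WT and at 42.4, 2.87, 7.99 and 15.5 FPKM in 5xFAD mice, a log2 fold change of 3.59 ± 0.71 (SE, edgeR adjusted p = 0.00612). C4b, a complement component, was at 10.8, 10.4, 9.47 and 8.03 FPKM in WT and at 72.4, 34.8, 13.7 and 75.7 FPKM in 5xFAD mice, a log2 fold change of 2.36 ± 0.41 (SE, edgeR adjusted p = 0.00255). All 4 5xFAD mice were above all 4 WT mice for both genes, which held for 8.75% of all genes. H2-D1, H2-K1 and B2m, of antigen presentation, and Cd63, a tetraspanin of lysosomes, were the other 4 called, with log2 fold changes from 1.38 to 2.37. Serpina3n (1.48, edgeR adjusted p = 0.0916), Sgk1 (-0.36) and Il33 (0.08) did not pass. Of 8 microglial genes, which share antigen presentation and complement with this list, 6 were called higher in the same comparison, and their part in these values was not tested.

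In light-treated against untreated 5xFAD mice 0 of these 9 genes were called, where 0.27% of all genes were. Sgk1, a stress and glucocorticoid responsive kinase of oligodendrocytes, was at 67.0, 73.5, 74.5 and 90.5 FPKM in untreated 5xFAD and at 36.5, 37.9, 39.8 and 37.9 FPKM in light-treated mice. All 4 light-treated mice were lower, which held for 3.98% of all genes. The log2 fold change of Sgk1 was -0.98 ± 0.18 (SE, edgeR adjusted p = 0.0483), just under 2-fold. Against WT mice, which were at 127.6, 62.7, 120.4 and 87.1 FPKM, Sgk1 was called lower, at -1.34 (edgeR adjusted p = 0.000740), and C4b, H2-D1, H2-K1 and B2m were called higher. Of all genes 2.36% were called in that comparison.

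The enzymes of sterol synthesis, whose product cholesterol is a main lipid of myelin and which neurons and astrocytes also make, had no called gene in any HPC comparison. In 5xFAD against WT mice all 16 had estimates above 0, with a median of 0.42 against 0.01 over all genes, 9 had an unadjusted p below 0.05, against 24.0% of all genes, and 2 passed adjustment, against 8.54%. These were Fdft1, squalene synthase, at 0.68 (edgeR adjusted p = 0.0498) and Ebp, a sterol isomerase, at 0.54 (edgeR adjusted p = 0.0111). In light-treated against untreated 5xFAD mice 15 of 16 estimates were below 0, with a median of -0.45 against -0.02, 12 had an unadjusted p below 0.05, against 18.3% of all genes, and 0 passed adjustment. The lowest was Msmo1, a sterol methyl oxidase, at -0.64 (edgeR adjusted p = 0.122). Both comparisons share the untreated 5xFAD mice, and against WT mice the light-treated mice had a median of -0.03 over the 16 genes. The 16 genes summed to 872, 515, 576 and 553 FPKM in untreated 5xFAD mice 1 to 4, so mouse 1 stood well above the rest of its group. The sums were 453 to 483 FPKM in WT and 420 to 509 FPKM in light-treated mice. Estimates without untreated mouse 1 are not given for these genes.

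Genes of neighbouring tissue also varied between the HPC samples. Choroid plexus genes summed to between 35.9 and 3180 FPKM, with WT mouse 2 at 2784 FPKM and untreated 5xFAD mice 1 and 2 at 3180 and 2911 FPKM. These sums varied widely within the WT and untreated groups, and the 3 groups overlapped. Meningeal fibroblast genes summed to between 15.6 and 27.0 FPKM in light-treated mice, below the 30.9 to 63.4 FPKM of WT and the 40.0 to 114 FPKM of untreated 5xFAD mice. Their part in the values of the 9 genes and of the other lists was not tested.

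In the meninges the 9 genes were far lower and their order was different. In WT mice Mbp fell from a mean of 2216 ± 556 FPKM in HPC to 103 ± 43.0 FPKM in meninges (SD, n = 4), which was 4.65% of its level in HPC. Opalin kept 1.24%, Mog 1.47%, Mobp 2.62%, Olig1 4.48%, Mag 5.44%, Olig2 8.24% and Cnp 12.8%, whereas Mal kept 43.7%. By this measure Opalin and Mog were reduced most, and Mal and Cnp least. Opalin and Mog had at most 10 and 25 counts in a meningeal sample, so their percentages rest on values near the floor. Mean FPKM over the 10 meninges fell in the order Mbp (86.6), Cnp (23.8), Mal (17.2), Mobp (9.62), Mag (3.32), Olig1 (2.37), Mog (0.511), Olig2 (0.261) and Opalin (0.167). No neighbouring pair in this order had separate ranges, and Olig2 and Opalin were the closest, with Olig2 higher in 6 of 10 mice.

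Of the 9 genes 6 passed the filter on low values in the meninges as well as in the HPC, and 6 of these 6 were called lower in WT meninges than in WT HPC by edgeR. Of the 12211 genes that passed in each tissue 21.1% were called lower, and of all 15132 genes in the fit 21.3%. Log2 fold changes were -5.37 ± 0.49 for Mobp, -4.50 ± 0.59 for Olig1, -4.46 ± 0.46 for Mbp, -4.22 ± 0.42 for Mag, -3.04 ± 0.28 for Cnp and -1.77 ± 0.32 for Mal (SE). Their median was -4.34, against -0.04 over the genes that passed in each tissue. Without WT meninges 1 they ran from -5.86 for Mobp to -1.84 for Mal, with Olig1 at -5.79 and again 6 of 6 called. Opalin (-6.38), Mog (-6.24) and Olig2 (-3.60) entered the fit only through their level in the HPC, so their lower values are given as a description. All 4 HPC values lay above all 4 meningeal values for each of the 6 genes that passed in each tissue. This held for 28.9% of all 15132 genes in the fit. Schwann cell genes summed to between 155 and 284 FPKM in WT meninges and to between 32.1 and 36.3 FPKM in WT HPC, and neuronal genes to between 210 and 612 FPKM and between 4488 and 4908 FPKM. Sox10, which Schwann cells and oligodendrocytes both use, was at -0.23 (edgeR adjusted p = 0.639).

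**Figure D4:**
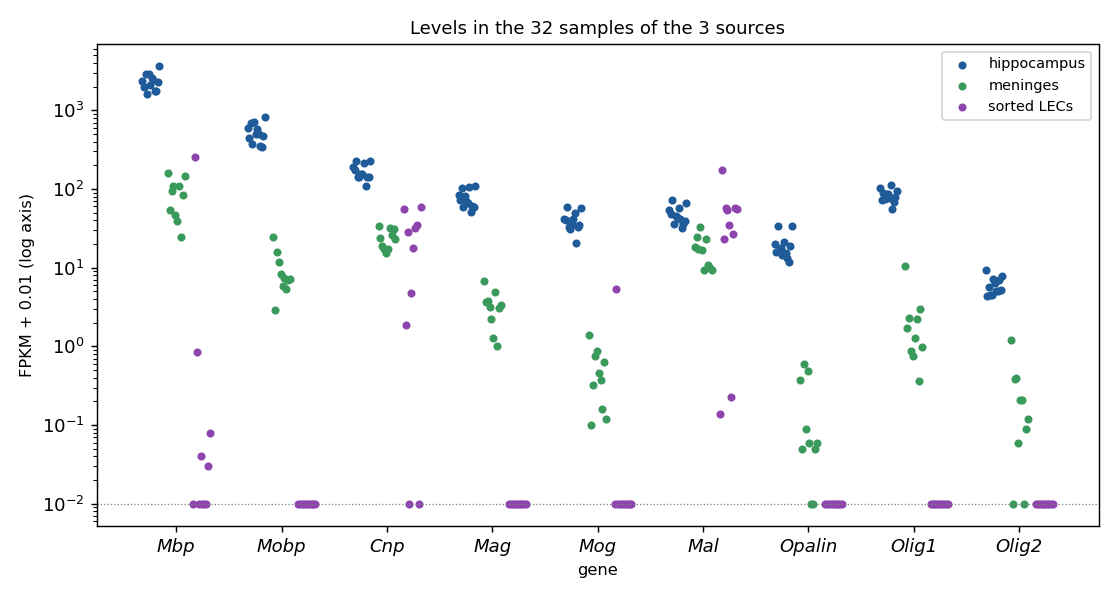
FPKM plus 0.01 (y axis, log scale) of each gene (x axis) in the 12 HPC samples (blue), 10 meninges (green) and 10 mLEC samples (purple), 1 point per sample. Points on the dotted line are listed at 0. Mobp, Mag, Opalin, Olig1 and Olig2 are at 0 in all 10 mLEC samples, and the ranges of Mal and of Cnp overlap between meninges and mLECs.

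Within the meninges none of the 6 genes tested differed between the groups past adjustment. Mbp was at 158, 53.7, 93.1 and 108 FPKM in WT mice 1 to 4, at 47.1, 39.1 and 111 FPKM in untreated 5xFAD mice 1, 2 and 4 and at 24.8, 84.5 and 147 FPKM in light-treated mice 1, 2 and 4. The 3 groups overlapped, and values within a group differed by up to 5.93-fold. Mobp was at 24.5, 2.91, 15.8 and 11.9 FPKM in WT, at 8.42, 5.81 and 7.45 FPKM in untreated 5xFAD and at 5.33, 6.93 and 7.15 FPKM in light-treated mice. Apart from WT mouse 2, which was the lowest of all 10, every WT mouse was above every 5xFAD mouse for Mobp.

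Mal was at 18.3, 24.3, 17.2 and 32.6 FPKM in WT, at 17.0, 9.21 and 23.4 FPKM in untreated 5xFAD and at 10.8, 9.86 and 9.21 FPKM in light-treated mice. It was the only gene of the 6 tested in meninges in which the 3 light-treated mice were all below the 4 WT mice. Cnp was at 33.6, 23.9, 19.0 and 17.4 FPKM in WT, at 15.2, 17.5 and 31.9 FPKM in untreated 5xFAD and at 26.2, 30.7 and 23.1 FPKM in light-treated mice. Mag was at 6.83, 3.68, 3.76 and 3.12 FPKM in WT, at 2.19, 1.26 and 4.90 FPKM in untreated 5xFAD and at 0.99, 3.08 and 3.36 FPKM in light-treated mice. Untreated 5xFAD mouse 4 was above the other untreated 5xFAD mice for Mbp, Mal, Cnp, Mag and Olig1, and its meninges had the lowest neuronal sum, 118 FPKM, and the highest Schwann cell sum, 333 FPKM.

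Olig1 was at 10.4, 1.68, 2.27 and 0.86 FPKM in WT, at 0.74, 1.26 and 2.23 FPKM in untreated 5xFAD and at 0.35, 2.96 and 0.98 FPKM in light-treated mice. WT mouse 1, which had the most neuronal RNA, held the highest value of 7 of the 9 genes. Mog, Opalin and Olig2 did not reach 1 FPKM in 3 meninges and were not tested. They ran from 0.09 to 1.4 FPKM, from 0 to 0.58 FPKM and from 0 to 1.20 FPKM, and these came from at most 25, 10 and 46 counts in a sample.

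**Figure D5:**
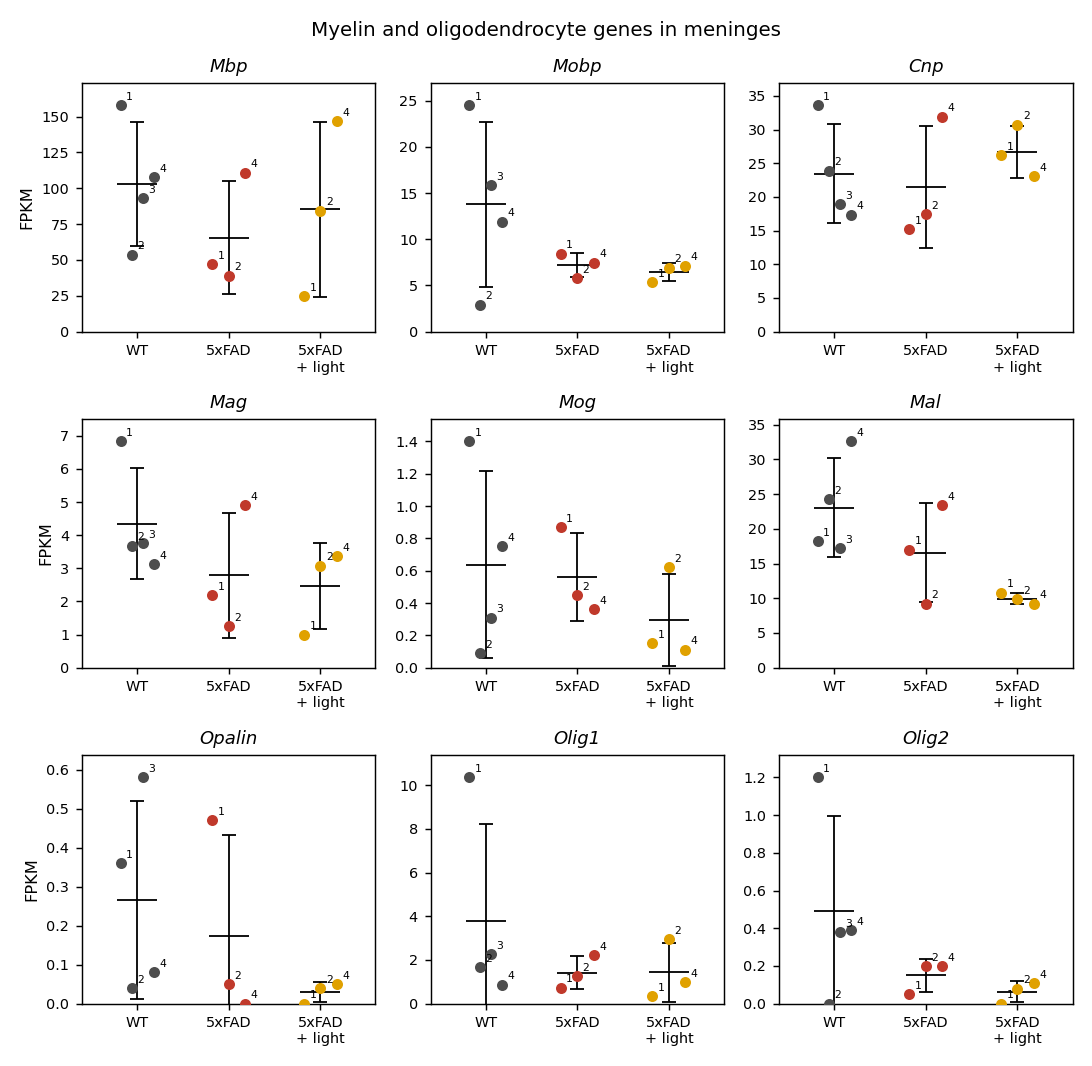
FPKM of each gene (y axis, linear from 0, scale set per gene) in meninges of the 3 groups, with 4, 3 and 3 mice (x axis), 1 point per mouse with its replicate number. Horizontal lines are group means and bars are 1 SD, drawn only above 0. WT mouse 1 is the highest of all in 7 of 9 panels, and Mal is lower in the 3 light-treated mice than in the 4 WT mice.

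In untreated 5xFAD against WT meninges, 0 of 6 genes were called by edgeR and 0 had an unadjusted p below 0.05, where the shares of all 14318 genes were 0% and 4.01%. DESeq2 and limma gave 0 of 6 at both thresholds too. The groups overlapped for 6 of 6 genes and were apart for 4.85% of all. Estimates were below 0 for 50.4% of all genes, for 9 of 9 neuronal genes tested and for 6 of 6 of the genes followed. Neuronal genes summed to 295, 277 and 118 FPKM in untreated 5xFAD mice 1, 2 and 4, and to 612, 210, 338 and 233 FPKM in WT mice 1 to 4. The 6 estimates ran from -1.40 for Olig1 (-3.19 to 0.39, edgeR adjusted p = 0.987) to -0.11 for Cnp (-0.75 to 0.52, edgeR adjusted p = 0.992). The estimates moved with single libraries: without WT mouse 1 the median went from -0.60 to -0.30, and without untreated 5xFAD mouse 4 it went to -1.12, where Mal, Mag and Mbp, 3 of the 6, had an unadjusted p below 0.05 and an edgeR adjusted p of 0.999, against 3.95% of all genes at that unadjusted p.

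In light-treated against untreated 5xFAD meninges, 0 of 6 genes were called and 0 had an unadjusted p below 0.05 in edgeR, where the shares of all genes were 0.0140% and 12.7%, and DESeq2 and limma also gave 0 of 6. The groups overlapped for 6 of 6 genes and were apart for 20.8% of all. Estimates ran from -0.41 for Mal (-1.20 to 0.37, adjusted p = 0.641) to 0.36 for Mbp (-0.78 to 1.501, adjusted p = 0.792).

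In light-treated 5xFAD against WT meninges, 0 of 6 genes were called, where 0.0140% of all were. An unadjusted p below 0.05 was found for 2 of 6, against 16.4% of all genes. These were Mal, at -0.84 on the log2 scale (-1.58 to -0.09, edgeR adjusted p = 0.259), and Mobp, at -1.09 (edgeR adjusted p = 0.304). The groups were apart for 1 of 6 genes, Mal, and for 12.3% of all. Without WT mouse 1 the values were -0.78 for Mal (edgeR adjusted p = 0.294) and -0.63 for Mobp (edgeR adjusted p = 0.501). All 9 neuronal genes tested were also below 0, against 49% of all genes. The neuronal median was -1.43 against 0.01 over all genes, and Sox10 had an estimate of -2.18 (edgeR adjusted p = 0.158). The summed neuronal FPKM overlapped between the groups. It was 136, 456 and 257 in light-treated mice 1, 2 and 4. In WT mice 1 to 4 it was 612, 210, 338 and 233, so the top of the WT range was WT mouse 1. The neuronal and Sox10 estimates are not given without WT mouse 1. The part of brain tissue in the meningeal samples was not tested. In simulated counts of the first meningeal comparison, edgeR recovered 160 of 200 genes changed 4-fold and 0 of 200 changed 2-fold among 14318 genes, so that a 2-fold change was not detectable there.

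Whether the effects differed between the tissues was tested as an interaction over the 22 samples. Only the 6 genes that passed the filter in each tissue are counted. For the effect of the 5xFAD genotype, 0 of 6 genes were called, against 1.69% of the 15132 genes, and 0 had an unadjusted p below 0.05 in edgeR, against 12.8%. Olig1 had the estimate farthest from 0, -1.57 on the log2 scale, with an interval from -3.26 to 0.12 (edgeR adjusted p = 0.440). For the effect of light, 0 of 6 were called, against 0.971%, and 0 had an unadjusted p below 0.05 in edgeR or DESeq2, against 19.8% in edgeR. Estimates ran from -0.35 for Mal (-1.34 to 0.63) to 0.38 for Mbp.

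In mLECs most of the oligodendrocyte genes were not detected at this depth. Mag, Mobp, Opalin, Olig1 and Olig2 had a count of 0 in 10 of 10 samples, which allows up to 3 counts in a library, or between 0.124 and 0.211 CPM. This limit covers counting error only. Mog was at 5.34 FPKM, 160 counts, in WT replicate 2 and at 0 in the other 9 samples. Mbp was at 255 FPKM, 8618 counts, in the same library, at 0.83 FPKM in WT replicate 3 and at 0.07 FPKM or less in the other 8. Without WT replicate 2, the mLECs therefore held Mbp at 0.83 FPKM or less and Mog at 0 in every library.

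Cnp and Mal, which are not limited to oligodendrocytes, were present in most mLEC samples and varied widely between libraries. Cnp was at 55.2, 1.86, 28.1 and 0 FPKM in WT, at 4.75, 17.95 and 31.95 FPKM in untreated 5xFAD and at 34.4, 0 and 58.4 FPKM in light-treated mice. Mal was at 0.13, 173, 23.1 and 56.9 FPKM in WT, at 54.7, 35.0 and 0.22 FPKM in untreated 5xFAD and at 27.1, 56.6 and 55.3 FPKM in light-treated mice. Each group held both a low and a high sample for Cnp, and 2 of 10 samples lacked it. The mLEC tables were normalized separately from the tissues, so levels across them are set side by side only.

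In edgeR's test of the mLECs, Cnp and Mal were the 2 of 9 genes tested. None was called for 5xFAD against WT, light-treated against untreated 5xFAD or light-treated 5xFAD against WT mice, where 0%, 0% and 0.0122% of 8188 genes were called. Neither had an unadjusted p below 0.05 in edgeR, DESeq2 or limma, where edgeR's shares of all genes were 3.81%, 4.01% and 6.72%. Intervals of the log2 fold change were several units wide, for example from -4.50 to 3.13 for Mal in 5xFAD against WT mice. The estimate there was -0.47 for Cnp and -0.69 for Mal, and it was -0.85 and -0.47 without WT replicate 2 and -0.88 and -0.25 without WT replicate 4. For light-treated 5xFAD against WT mice it was 0.22 for Cnp and 0.26 for Mal, and it was -0.16 and 0.49 without WT replicate 2 and -0.19 and 0.70 without WT replicate 4. With no filter on low values, or with a mean FPKM of 5, Mbp entered the test, with nearly all of its reads in WT replicate 2, and had an unadjusted p below 0.05 in both comparisons with WT mice, and it did not pass adjustment. In simulated counts of that comparison, 0 of 200 genes changed 4-fold were recovered among 8188 genes, so that changes of this size were not detectable.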

How the data were processed

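HPC, meninges and mLECs were sequenced from Smart-seq2 libraries. Per the methods, the authors filtered reads with fastp and quantified genes with RSEM, while the submitters' processing notes name Trimmomatic, HISAT2, StringTie, DESeq2 and mm10, and which of these made the tables was not settled here. The authors deposited estimated counts per gene without normalization, and FPKM values scaled by transcript length and library size. HPC and meninges share a table, and mLECs have their own. Symbols came from the mLEC table, joined by gene identifier. Gene positions are those of GENCODE vM21.

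The estimated counts were rounded, and edgeR 4.0.16 (R 4.3.3) fitted its quasi-likelihood model after TMM scaling. Each tissue's 3 groups shared 1 fit, and HPC and meninges were fitted together for comparisons between tissues. A gene was tested if 3 or more samples of the fit reached 1 FPKM. Adjustment was by Benjamini and Hochberg over all genes tested, and intervals used the t quantile at the fit's degrees of freedom. As alternatives, scaling was changed to median of ratios, the filter was dropped or set to a mean FPKM of 5, each fit was limited to the groups compared, a block for replicate number was added, the fold threshold was dropped, each sample was left out, and DESeq2 1.42.0 or limma 3.58.1 (on log2 FPKM with 1 or 0.1 added) replaced edgeR. The correlations without light-treated mouse 4 and the counts over genes passing the filter in each tissue were added after seeing the data. All steps were tested on simulated counts. Precision is set by the spread between mice: the coefficient of biological variation was 0.198 in HPC, 0.350 in meninges and 1.89 in mLECs. The 9 genes and the gene lists were chosen with earlier results of these data known. The text names the 9 genes, the 3 most abundant genes of a list in WT HPC (WT meninges for Schwann cells), up to 4 called genes of a list with the largest change, and the 10 genes that varied most like the 9. Other named genes, such as Gsn, Tppp, Elovl1, Itpr2, Fdft1, Ebp, Serpina3n, Il33 and Sox10, were chosen after their values were seen. Some genes that this rule names are not reported here.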

Additional observations from a re-analysis of the deposited data

Results flagged for a closer look

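In groups of 4 samples, the gap between the most extreme sample and its neighbour was set against the range of the group. Of 40 pairs of gene and group, 5 passed Dixon's critical value for groups of this size, which chance passes in about 1 in 20 groups. In HPC these were Mag in light-treated mouse 4, at 110.46 FPKM with the other 3 between 51.3 and 61.0, and Cnp in untreated 5xFAD mouse 4, at 216.02 FPKM with the other 3 between 143 and 154. In meninges it was Olig1 in WT mouse 1, at 10.36 FPKM with the other 3 between 0.86 and 2.27. In mLECs they were Mbp and Mog in WT replicate 2, at 254.79 and 5.34 FPKM, with Mbp at 0.83 or less and Mog at 0 in the other 3.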

How the results depend on the processing

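The number of genes called was the same in every fit that left out 1 sample and at every other setting. It was 0 within each tissue and in both interactions. In WT meninges against WT HPC it was 6 of the 6 genes passing the filter in each tissue. Single estimates near 0 in HPC, in meninges and between WT tissues changed sign in 45 of 408 leave-one-out values, and the cause was not tested. For 5xFAD against WT HPC, leaving out 1 sample moved Mobp from -0.019 to 0.32, Mag from -0.077 to 0.20, Mog from -0.23 to 0.10, Opalin from -0.43 to 0.016 and Olig2 from -0.17 to 0.26. For light-treated against untreated HPC the ranges were -0.36 to 0.063 for Mbp, -0.34 to 0.043 for Cnp, -0.43 to 0.080 for Mog, -0.44 to 0.033 for Mal, -0.24 to 0.36 for Opalin and -0.015 to 0.24 for Olig2. For light-treated against WT HPC they were -0.18 to 0.28 for Mbp, -0.39 to 0.14 for Mobp, -0.43 to 0.038 for Mag, -0.53 to 0.0045 for Mog, -0.54 to 0.18 for Opalin and -0.060 to 0.38 for Olig2. In meninges they were -0.52 to 0.10 for Cnp in 5xFAD against WT mice and -0.96 to 0.13 for Mbp in light-treated against WT mice. For light-treated against untreated 5xFAD meninges they were -0.35 to 0.93 for Mbp, -0.49 to 0.68 for Mag, -0.65 to 0.22 for Mal and -1.04 to 0.45 for Olig1. Of the 425 other values 1 changed sign, Olig1 in that last comparison, at 0.022 with no filter on low values against -0.04.

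Over all genes, calls in HPC ranged over the other settings from 211 to 682 for 5xFAD against WT (556 as reported) and from 0 to 192 for light-treated against untreated mice (35 as reported), and went down to 132 for light-treated against WT mice (306 as reported). They ranged from 0 to 72 for light-treated against untreated meninges and from 0 to 372 for light-treated against WT meninges (2 as reported in each). In mLECs they ranged from 0 to 185, from 0 to 357 and from 0 to 464 for 5xFAD against WT, light-treated against untreated and light-treated against WT mice (0, 0 and 1 as reported), and in the interactions from 139 to 452 for genotype (256 as reported) and from 19 to 576 for light (147 as reported). In mLECs the settings differed in which of the 9 myelin and oligodendrocyte genes were tested. The median over those tested ranged from -4.69 to 1.68, from -2.06 to 0.90 and from -4.23 to 1.01 in the 3 comparisons, so its sign was not settled. Leaving out 1 sample gave up to 3 of the 6 genes at an unadjusted p below 0.05 in the interaction for genotype, without untreated 5xFAD meninges 4, against 13.9% of all genes. Samples with the same replicate number did not deviate together: of 12 such pairs in HPC 0 had a correlation over 0.1, of 9 in meninges 2 and of 8 in mLECs 0. With the replicate number as a block, 0 of the 9 genes were called within a tissue and 6 of the 6 between tissues. In meninges and mLECs the spread between samples limited what was detected.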

Other observations

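In untreated 5xFAD against WT HPC, where 4.28% of all genes tested were called, genes of other cell types had these values. Of 8 microglial genes 6 were called higher and 8 passed adjustment without the fold threshold, and their median was 1.46 on the log2 scale against 0.01 over all genes tested. Of 6 astrocyte genes 1 was called, Gfap, the intermediate filament of reactive astrocytes, at 2.47 (edgeR adjusted p = 0.00352). Of 4 Schwann cell genes tested in HPC 1 was called. This was Pmp22, a protein of peripheral myelin that other cells also make, which was at 20.3 to 22.3 FPKM in WT and at 37.1 to 53.9 FPKM in 5xFAD mice without light (1.15 on the log2 scale, edgeR adjusted p = 0.000254).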
